A study of Mus musculus with 8 samples.

Results

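The 31 protein-coding genes of the semaphorin, plexin and neuropilin families were followed in lower first molars of mouse embryos that lack the Notch ligand Jagged1 in the epithelium. They were chosen by symbol from the 43629 Ensembl genes of the count tables (Sema, Plxn, Nrp1 and Nrp2) and comprise 20 semaphorins, 9 plexins and 2 neuropilins. RNA of the left and right molars of an embryo was pooled and sequenced for 4 mutants carrying K14:cre and Jagged1 fl/fl (K14J26, K14J28, K14J29, K14J30) and 4 littermate controls carrying Jagged1 fl/fl (J3, J5, J6, J7), all at stage E18.5. This control genotype is that of the labels, while the methods of the study call the controls wild type. By the labels both groups share the floxed alleles, and the keratin 14 promoter places Cre in epithelium, so that the mesenchyme of a mutant molar keeps Jagged1. The embryo is the replicate (n = 4 per group).

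Semaphorins are secreted or membrane-bound guidance proteins that steer axons, vessels and migrating cells, mostly by making the receiving cell retract. Plexins are their receptors, and act through a GTPase-activating domain inside the cell and through small GTPase partners. Most class 3 semaphorins are secreted and reach class A plexins through a neuropilin, which binds the ligand but signals little by itself, while classes 4 to 7 sit on the cell surface and mostly bind plexins directly. In the tooth, Sema3a is known for holding nerve fibres outside the dental papilla until late stages.

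Totals ran from 17327224 to 29792467 counts per embryo, and between 41272 and 88600 of these counts fell on the 31 genes. Expression is given as CPM, each count scaled to the TMM-adjusted library size, on which 3 counts correspond to 0.0998 to 0.166 CPM. Jag1, the deleted gene, had 95.2, 103, 104 and 99.8 CPM in controls J3, J5, J6 and J7 and 34.0, 38.9, 45.9 and 57.1 CPM in mutants K14J26, K14J28, K14J29 and K14J30 (log2 fold change -1.19, standard error 0.14, edgeR adjusted p = 0.00517). Controls J6 and J7 carried skeletal muscle transcripts, with 399 and 201 CPM summed over 8 markers against 6.25 to 20.9 CPM in the other 6 embryos, and mutant K14J28 had 1409 CPM of 6 macrophage and osteoclast markers against at most 484 CPM elsewhere. The epithelial markers Krt14, Krt5, Epcam, Cdh1 and Trp63 were detected in every embryo, and so were the mesenchymal markers Msx1, Barx1, Pax9, Lhx6 and Vim.

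All 31 genes passed the count filter, and 11 had an adjusted p under 0.05 in edgeR's quasi-likelihood test over the 17129 genes tested. Of these, 8 were higher in mutant molars (25.8% of the family, against 9.52% of all tested genes): the semaphorins Sema3d, Sema3e and Sema7a and the plexins Plxna1, Plxna2, Plxna4, Plxnb1 and Plxnc1. A further 3 were lower (9.68%, against 6.61% of all tested genes): Sema4a, Sema5b and Sema6a. Every mutant value lay above every control value for 6 of the 31 genes (19.4%, against 12.6% of all tested genes), and below for 5 (16.1%, against 11.6%). The size of the changes was ordinary, with a median absolute log2 fold change of 0.23 in the family and 0.22 over all tested genes. In whole molars, a change in the number of cells that express a gene and a change in RNA per cell cannot be told apart.

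**Figure D1:**
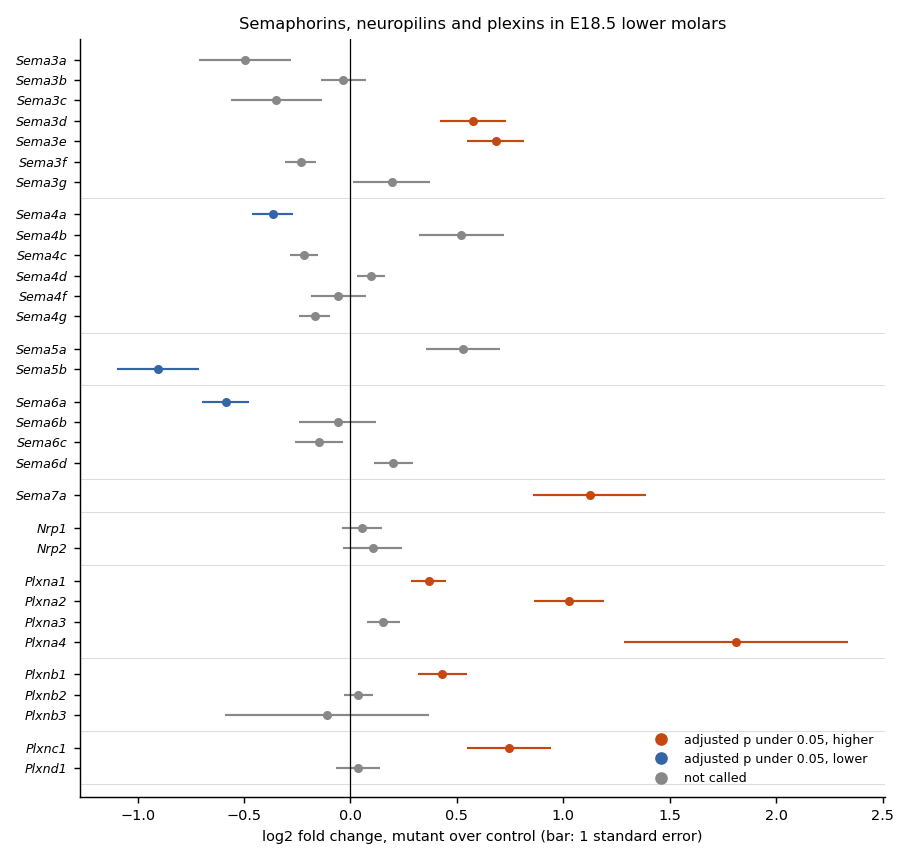
Log2 fold change of mutant over control (x axis) with 1 standard error for the 31 genes, grouped by class from class 3 semaphorins at the top to class C and D plexins at the bottom. Coloured points have an edgeR adjusted p under 0.05, as do 9.52% (higher) and 6.61% (lower) of all tested genes. Of the 9 plexins, 5 are coloured as higher (55.6%). 8 plexins have a log2 fold change above 0, but Plxnb2 and Plxnd1 lie at only 0.04. The 6 coloured semaphorins are split between the sides (15% of semaphorins on each).

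The calls depended on which embryos were included. When embryos were left out singly, the 8 higher genes became 1 without J3, 2 without J5, 5 without J6, 1 without J7, 8 without K14J26, 10 without K14J28, 1 without K14J29 and 6 without K14J30. The 3 lower genes became 1, 2, 2, 1, 4, 6, 0 and 3 in the same order. Without K14J29, 10 higher and 5 lower genes had an unadjusted p under 0.05 (32.3% and 16.1%, against 15.9% and 11.9% of all tested genes). The number of calls over all tested genes moved as well, from 1631 higher genes to between 250 and 2479, and from 1133 lower genes to between 170 and 1845. The sign of the fold change of the 11 called genes was the same in all 8 of these fits, and Plxna2 was called in each of them. All 11 remained called without K14J26 and without K14J28. With the mean log2 level of the 8 skeletal muscle markers as a covariate, none of the 31 genes was called by edgeR, and 72 genes were called higher and 61 lower over the whole table. The log2 fold changes of the 11 genes were then 0.869 to 1.06 times those without the covariate. At an unadjusted p under 0.05, 8 of the 31 genes were higher and 4 lower (25.8% and 12.9%, against 13.3% and 10.8% of all tested genes). The criteria of the study include p up to 0.05 and a fold change of 0.5 or more. They were read here as an unadjusted p and a log2 fold change in either direction. In the fit with no covariate, these criteria gave 8 higher and 2 lower genes (25.8% and 6.45%, against 8.33% and 5.85% of all tested genes), and 3 of the 9 plexins were among the higher.

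The 250 bases before the annotated start were taken from the RefSeq promoter table (GRCm38.p6), which holds 26 of the 31 genes in 37 windows. The 6 windows printed belong to called genes: Sema3d and Sema3e, ligands that rose, Plxna2, the plexin called in every fit, the ligand Sema7a and its receptor Plxnc1, and Sema4a, which fell. They lie at chr5:12382916-12383165 (plus strand) for Sema3d, chr5:14025026-14025275 (plus) for Sema3e, chr1:194619579-194619828 (plus) for Plxna2, chr9:57939862-57940111 (plus) for Sema7a, chr10:94944846-94945095 (minus) for Plxnc1 and chr3:88461183-88461432 (minus) for the most upstream of the starts of Sema4a. In the GENCODE annotation a retained-intron transcript of Plxna2 also covers the window of that gene. All run 5′ to 3′ on the strand of the gene, and capitals mark matches to TGGGAA (the core bound by RBPJ, the DNA-binding partner of Notch), TGTGGT (the core bound by RUNX factors) or GGGCGG (the core bound by SP factors) on either strand.
Sema3d: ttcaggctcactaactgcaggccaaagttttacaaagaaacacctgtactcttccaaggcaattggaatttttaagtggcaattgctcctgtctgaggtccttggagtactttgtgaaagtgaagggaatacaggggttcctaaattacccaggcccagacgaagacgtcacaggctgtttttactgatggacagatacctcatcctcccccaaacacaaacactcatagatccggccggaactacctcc
Sema3e: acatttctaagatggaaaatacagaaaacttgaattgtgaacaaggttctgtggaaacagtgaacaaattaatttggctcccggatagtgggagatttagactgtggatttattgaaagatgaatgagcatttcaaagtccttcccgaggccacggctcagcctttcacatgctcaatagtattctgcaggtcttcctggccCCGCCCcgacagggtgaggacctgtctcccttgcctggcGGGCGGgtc
Plxna2: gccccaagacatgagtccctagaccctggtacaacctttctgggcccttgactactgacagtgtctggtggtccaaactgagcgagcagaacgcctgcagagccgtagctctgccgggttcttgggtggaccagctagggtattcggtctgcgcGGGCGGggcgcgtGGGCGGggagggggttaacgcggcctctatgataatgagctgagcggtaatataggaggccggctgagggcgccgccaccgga
Sema7a: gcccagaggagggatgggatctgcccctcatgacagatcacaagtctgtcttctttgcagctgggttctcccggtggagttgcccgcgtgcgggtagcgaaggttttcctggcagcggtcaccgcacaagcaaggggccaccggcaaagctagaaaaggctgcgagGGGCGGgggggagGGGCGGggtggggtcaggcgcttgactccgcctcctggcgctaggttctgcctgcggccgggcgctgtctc
Plxnc1: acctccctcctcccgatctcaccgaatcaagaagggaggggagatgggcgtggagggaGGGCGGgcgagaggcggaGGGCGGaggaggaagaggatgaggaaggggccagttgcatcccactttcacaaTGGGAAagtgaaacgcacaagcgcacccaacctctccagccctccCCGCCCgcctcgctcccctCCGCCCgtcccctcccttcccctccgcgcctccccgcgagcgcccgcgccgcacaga
Sema4a: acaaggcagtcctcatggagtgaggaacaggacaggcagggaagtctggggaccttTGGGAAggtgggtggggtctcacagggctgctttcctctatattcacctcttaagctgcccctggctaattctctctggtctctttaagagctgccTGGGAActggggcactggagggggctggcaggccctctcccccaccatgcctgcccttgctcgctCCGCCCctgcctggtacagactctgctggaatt

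TGGGAA or its complement occurred in 6 of the 37 windows of the family (16.2%), against 21.6% of the 32851 RefSeq windows of the same length. Among the printed windows, Plxnc1 held it once, 121 bases before the start, and Sema4a held it 194 and 98 bases before the start, while the letters were not in the windows of Sema3d, Sema3e, Plxna2 and Sema7a. TGTGGT was found in 5 of the 37 windows (13.5%, against 14% of all windows) and in none of those printed. GGGCGG was found in 27 of the 37 windows (73.0%, against 32.7% of all windows), including a pair of matches each in Plxna2, Sema7a and Sema3e. The median share of G and C was 64% over the 37 windows and 52.4% over all windows. It was 46.8% for Sema3d, 48% for Sema3e, 59.6% for Sema4a, 62.8% for Plxna2, 66.4% for Sema7a and 68.8% for Plxnc1. These letter matches are a description of the sequence and do not show binding.

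Among the 7 secreted class 3 semaphorins, Sema3d and Sema3e rose (28.6%, against 9.52% of all tested genes). The others did not pass edgeR's test. Sema3d, a guidance cue for neural crest and heart cells, was also the class 3 ligand with the highest level per exon length, at 21.6 ± 3.5 CPM per kilobase (SD, n = 4) in controls. Its expression was 165, 207, 215 and 155 CPM in J3, J5, J6 and J7 and 348, 230, 291 and 238 CPM in K14J26, K14J28, K14J29 and K14J30. The groups did not overlap, although K14J28 was only just above J6 (log2 fold change 0.58, standard error 0.15, edgeR adjusted p = 0.0364). Sema3e, which binds Plxnd1 without a neuropilin, had 28.1, 32.3, 38.1 and 27.9 CPM in the controls and 59.6, 42.2, 54.2 and 46.7 CPM in the mutants. All mutants were above all controls here too, a 1.61-fold rise (log2 fold change 0.68, standard error 0.13, edgeR adjusted p = 0.0165).

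Sema3f, the ligand best known for Nrp2, had 43.9, 41.2, 41.7 and 41.0 CPM in controls and 39.2, 36.2, 31.8 and 35.5 CPM in mutants. Each mutant was below each control, but the difference fell short of the threshold (log2 fold change -0.23, standard error 0.07, edgeR adjusted p = 0.0593), while DESeq2 gave an adjusted p of 0.0363. Sema3a had 41.5 to 57.2 CPM in controls and 25.7, 53.3, 32.0 and 31.4 CPM in K14J26, K14J28, K14J29 and K14J30. K14J28 lay within the control range and the other mutants below it, and the log2 fold change was -0.50 (standard error 0.21, edgeR adjusted p = 0.135). Sema3c, a ligand in heart outflow tract development, was lowest in K14J26 at 11.8 CPM and had 19.0 to 28.2 CPM in the other 7 embryos (log2 fold change -0.35, standard error 0.21, edgeR adjusted p = 0.27). Xist, the transcript of the inactive X chromosome, was at 1928 and 1467 CPM in K14J28 and K14J29 and at most 1.09 CPM elsewhere. As a covariate, its log2 level thus differed mainly among the mutants and was not balanced between the groups. With this covariate, Sema3a was at -0.87 (edgeR adjusted p = 0.0389) and Sema3c at -0.80 (edgeR adjusted p = 0.0319), and both were called lower. Without K14J28 both were called as well, at -0.76 (edgeR adjusted p = 0.0081) and -0.56 (edgeR adjusted p = 0.0465), while Sema3c was at -0.16 without K14J26. Sema3b and the vascular ligand Sema3g had log2 fold changes of -0.03 (standard error 0.11) and 0.19 (standard error 0.18), and Sema3g was low throughout, with 51 to 132 counts.

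4 of the class 3 genes lie along chromosome 5 of GRCm38 on the plus strand, in the order Sema3d (12383385 to 12588948), Sema3a (13125414 to 13602565), Sema3e (14025276 to 14256689) and Sema3c (17574281 to 17730268). The gap from Sema3d to Sema3a is 536 kb and holds no other protein-coding gene of the count tables, and that from Sema3a to Sema3e is 423 kb and holds 1. Sema3d and Sema3e, which rose, thus flank Sema3a, whose log2 fold change of -0.50 had the opposite sign and did not pass the test.

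Class 4 semaphorins are transmembrane ligands mainly of class B plexins. By edgeR, Sema4a was the only called gene of the 6 (16.7% lower, against 6.61% of all tested genes). Sema4a, also known as a costimulator of T cells, had 29.7, 31.7, 30.1 and 30.9 CPM in J3, J5, J6 and J7 and 20.9, 25.3, 21.3 and 27.4 CPM in the mutants in the order K14J26, K14J28, K14J29 and K14J30. All mutants were below all controls (log2 fold change -0.37, standard error 0.10, edgeR adjusted p = 0.0353), and the call was lost when libraries were scaled by size only (-0.46, edgeR adjusted p = 0.0613). With the endothelial covariate Sema4a was at -0.56. Sema4c, a ligand of Plxnb2, had the highest level per exon length of the class, with 59.1, 66.3, 68.3 and 65.4 CPM in controls and 53.1, 58.8, 56.0 and 54.9 CPM in mutants. These groups did not overlap either (log2 fold change -0.22, standard error 0.07, edgeR adjusted p = 0.0516), while DESeq2 gave an adjusted p of 0.0224. An antisense transcript, D430040D24Rik, shares 7.27% of the exon length of Sema4c, and the library kit does not mark strand.

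Sema4b had 33.6 to 40.2 CPM in controls and 78.0, 35.8, 53.6 and 48.4 CPM in mutants. K14J28 was inside the control range and the others above it, and the log2 fold change of 0.52 (standard error 0.20, edgeR adjusted p = 0.099) became 0.29 without K14J26, 0.67 without K14J28 (edgeR adjusted p = 0.0159) and 0.80 with the Xist covariate (edgeR adjusted p = 0.0355). For Sema4d, the ligand of Plxnb1, the log2 fold change was 0.10 (standard error 0.07), for Sema4f it was -0.06 (standard error 0.13) and for Sema4g it was -0.17 (standard error 0.07). The edgeR adjusted p of these 3 genes lay between 0.137 and 0.786, and the groups overlapped for each.

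The class 5 genes, transmembrane ligands with thrombospondin repeats, had fold changes of opposite sign. Sema5b, on chromosome 16 from 35541145 to 35664732, had 2.88, 2.76, 2.75 and 3.41 CPM in J3, J5, J6 and J7 and 1.10, 1.83, 1.66 and 1.67 CPM in K14J26, K14J28, K14J29 and K14J30. Its level was thus low in all embryos, with 23 to 101 counts, and lower in each mutant (log2 fold change -0.91, standard error 0.19, edgeR adjusted p = 0.0193). Sema5a had 271, 294, 336 and 319 CPM in controls and 609, 332, 447 and 371 CPM in mutants. K14J28 fell between J7 and J6 and the other mutants were above all controls (log2 fold change 0.53, standard error 0.17, edgeR adjusted p = 0.0636, DESeq2 adjusted p = 0.0211). Sema5a was at 0.33 without K14J26 (edgeR adjusted p = 0.0591), 0.64 without K14J28 (edgeR adjusted p = 0.0191) and -0.074 with the enamel covariate (edgeR adjusted p = 0.772). With the Xist covariate it was at 0.72 (edgeR adjusted p = 0.0424), and with the endothelial covariate at 0.84 (edgeR adjusted p = 0.0275). Sema5b was at -1.0 with the endothelial covariate (edgeR adjusted p = 0.0552). Sema5a and Sema5b were not tested against each other.

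In class 6, whose transmembrane members bind class A plexins, Sema6a fell (25%, against 6.61% of all tested genes). The other 3 genes were not called. Sema6a, a repellent ligand of Plxna2 and Plxna4 on chromosome 18 from 47235598 to 47368870, had 39.0, 34.7, 32.8 and 44.7 CPM in controls and 24.0, 28.9, 24.1 and 23.7 CPM in mutants. The groups were apart, and 3 of the mutants lay close together with K14J28 above them (log2 fold change -0.59, standard error 0.11, edgeR adjusted p = 0.0152). Sema6d, a ligand of Plxna1 and the class 6 gene with the highest level per exon length, had 46.3, 55.1, 51.7 and 59.7 CPM in controls and 63.8, 62.1, 64.7 and 54.3 CPM in mutants. K14J30 lay within the control range (log2 fold change 0.20, standard error 0.09, edgeR adjusted p = 0.149). Sema6b and Sema6c had log2 fold changes of -0.06 (standard error 0.18) and -0.15 (standard error 0.11), and both overlapped between the groups.

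Sema7a, the only class 7 semaphorin, is tied to the membrane by a lipid anchor and binds Plxnc1 and beta1 integrins. Its expression was 19.6, 21.3, 28.2 and 20.6 CPM in J3, J5, J6 and J7 and 71.0, 27.4, 57.3 and 40.0 CPM in K14J26, K14J28, K14J29 and K14J30. K14J28 lay just below J6, and the other mutants were above all controls. The mean was 22.4 ± 3.88 CPM (SD, n = 4) in controls and 48.9 ± 19.1 CPM (SD, n = 4) in mutants, a 2.18-fold rise (log2 fold change 1.12, standard error 0.27, edgeR adjusted p = 0.0259).

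**Figure D2:**
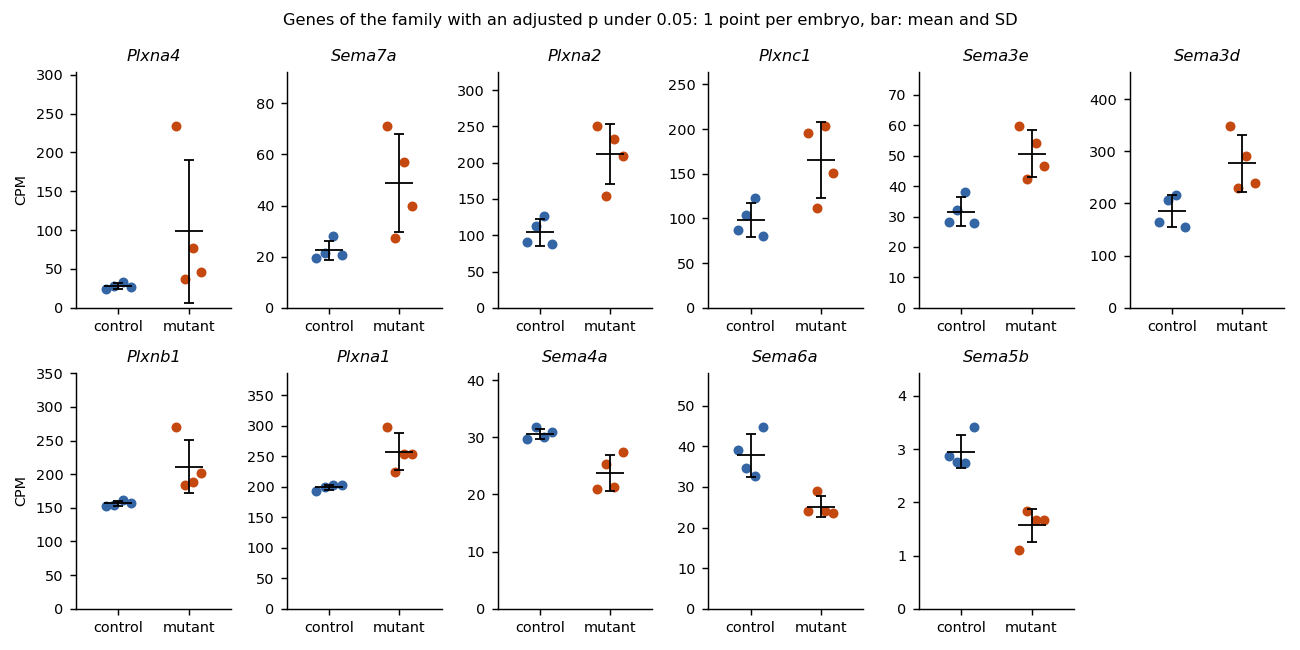
CPM (y axis, from 0) of the 11 genes with an edgeR adjusted p under 0.05 in the 4 control and 4 mutant embryos, 1 point per embryo, with the group mean and SD as bars. Mutant points of Plxna4 spread from 36.5 to 234 CPM, and the groups overlap for Sema7a and Plxnc1 but for no other gene shown.

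The neuropilins, co-receptors of class 3 semaphorins and of VEGF, were not called in either direction by edgeR or DESeq2 without a covariate. Nrp2 had 120, 143, 132 and 151 CPM in controls and 175, 169, 126 and 117 CPM in mutants, so that 2 mutants were above and 1 below all controls (log2 fold change 0.10, standard error 0.14, edgeR adjusted p = 0.625). Nrp1 ranged from 45.5 to 52.7 CPM in controls and from 41.4 to 54.4 CPM in mutants (log2 fold change 0.06, standard error 0.09, edgeR adjusted p = 0.707). For both genes the unadjusted p was above 0.05 in edgeR and DESeq2, and both signs turned negative when libraries were scaled by size only. With the mean log2 level of 8 endothelial markers as a covariate, Nrp1 was called higher (log2 fold change 0.28, edgeR adjusted p = 0.0493) and Nrp2 was not (0.33, edgeR adjusted p = 0.204).

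Of the 9 plexins, 5 rose (55.6%, against 9.52% of all tested genes) and none fell (against 6.61%) in edgeR's test. There, no plexin with a negative fold change had an unadjusted p under 0.05. DESeq2 called the same number of plexins in each direction, against 2244 higher and 1718 lower of the 17129 tested genes. Class A plexins, the signalling partners of neuropilins and receptors of class 6 semaphorins, accounted for 3 of the 5. This was 75% of the 4 class A genes, against 9.52% of all tested genes. Plxna2 rose 2.04-fold (log2 fold change 1.03, standard error 0.17, edgeR adjusted p = 0.0102), with 90.1, 113, 126 and 87.5 CPM in J3, J5, J6 and J7 and 250, 155, 233 and 210 CPM in K14J26, K14J28, K14J29 and K14J30. The lowest mutant, K14J28, was above the highest control, J6. Plxna1, which had the highest level per exon length of the class, had 194, 199, 203 and 202 CPM in controls and 298, 224, 254 and 254 CPM in mutants. The controls differed by less than 10 CPM, and each mutant exceeded them (log2 fold change 0.37, standard error 0.08, edgeR adjusted p = 0.0231). An antisense gene, Gm26811, shares 10.7% of the exon length of Plxna1 but had 56.9 counts per embryo on average, against 5632 for Plxna1.

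Plxna4, a receptor for Sema3a and Sema6a in sensory and sympathetic neurons, had the largest fold change of the family with all embryos included, and ranked below Plxna2 without K14J26. Its expression was 24.2, 27.7, 32.9 and 27.1 CPM in controls and 234, 36.5, 76.8 and 46.6 CPM in mutants in the order K14J26, K14J28, K14J29 and K14J30. All mutants were above all controls, but K14J26 stood far above the rest. The log2 fold change was 1.81 (standard error 0.53, edgeR adjusted p = 0.0464), and 0.93 without K14J26 (edgeR adjusted p = 0.0208), where Plxna2 was at 0.94. The neuron markers Tubb3, Elavl3, Elavl4, Snap25, Syt1 and Isl1 summed to 148 to 182 CPM in controls and 165 to 258 CPM in mutants. Nearly all of that sum was Tubb3 (144 to 177 CPM and 160 to 251 CPM). Of the 4 tested markers, 1 was called higher (against 9.52% of all tested genes), and Elavl3 and Isl1 were at 0 in at least 1 embryo. The Schwann cell markers summed to 97.2 to 112 CPM in controls and 89.1 to 102 CPM in mutants. Of these 6 markers, 1 was called lower (against 6.61% of all tested genes). The part of these cells in the values of Plxna4 was not tested.

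Plxna3, on the X chromosome, had 57.8 to 63.8 CPM in controls and 61.8 to 73.6 CPM in mutants (log2 fold change 0.15, standard error 0.08, edgeR adjusted p = 0.183). Xist was at 1928 and 1467 CPM in K14J28 and K14J29, while no other embryo exceeded 1.09 CPM, and Plxna3 was at 70.9 and 62.1 CPM in these mutants.

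Class B plexins are receptors of class 4 semaphorins that activate RhoA through PDZ-containing exchange factors. Plxnb1 had 154, 154, 162 and 157 CPM in controls and 270, 185, 189 and 202 CPM in mutants. The controls lay close together and each mutant was above them (log2 fold change 0.43, standard error 0.11, edgeR adjusted p = 0.0357). Plxnb2 had the highest level per exon length of the whole family and barely differed, with 357, 350, 377 and 379 CPM in controls and 345, 361, 384 and 410 CPM in mutants. Its ranges overlapped, the log2 fold change was 0.04 (standard error 0.07, edgeR adjusted p = 0.733), and the sign depended on the scaling. Plxnb3, a receptor for Sema5a, was at the edge of detection with 3 to 30 counts, at most 1.01 CPM.

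Plxnc1, the receptor of Sema7a, had 86.8, 104, 123 and 80.8 CPM in J3, J5, J6 and J7 and 196, 112, 203 and 150 CPM in K14J26, K14J28, K14J29 and K14J30. K14J28 lay between J5 and J6, and the other 3 mutants were above all controls (log2 fold change 0.74, standard error 0.20, edgeR adjusted p = 0.0352). Plxnd1, the endothelial receptor of Sema3e and the gene with the second highest level per exon length in controls, had 164, 166, 181 and 178 CPM in controls and 217, 153, 173 and 164 CPM in mutants. K14J26 was above and K14J28 and K14J30 below all controls, and the gene was not called (log2 fold change 0.04, standard error 0.10, edgeR adjusted p = 0.837). The endothelial markers Pecam1, Cdh5, Tek, Tie1, Kdr, Emcn, Esam and Cldn5 summed to 341 to 380 CPM in controls and 273 to 334 CPM in mutants. 1 of these 8 endothelial markers was called lower, against 6.61% of all tested genes. With the mean log2 level of the 8 markers as a covariate, Plxnd1 was at 0.21 (edgeR adjusted p = 0.247) and Plxnc1 at 0.90 (edgeR adjusted p = 0.0538).

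Log2 fold changes of some of the ligands and receptors named above are given here side by side. No ligand was tested against its receptor. Sema7a and Plxnc1 both rose, with log2 fold changes of 1.12 and 0.74. Sema3e rose while its receptor Plxnd1 had a log2 fold change of 0.04. Sema6a fell by 0.59 on the log2 scale while its receptors Plxna2 and Plxna4 rose by 1.03 and 1.81. Without K14J26, Sema6a, Plxna2 and Plxna4 were at -0.56, 0.94 and 0.93. Plxnb1 rose by 0.43 and its ligand Sema4d had 0.10. Sema4c and its receptor Plxnb2 had -0.22 and 0.04, and neither was called by edgeR, while DESeq2 called Sema4c lower (adjusted p = 0.0224). Summed over each family, plexins had 1186 ± 55.7 CPM (SD, n = 4) in controls and 1564 ± 243 CPM in mutants, semaphorins 1053 ± 51.1 and 1288 ± 203 CPM, and neuropilins 185 ± 16.1 and 197 ± 33.7 CPM.

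Levels between genes were compared per kilobase of the exon union of the GENCODE annotation. In controls, Plxnb2 led with 47.4 ± 1.90 CPM per kilobase (SD, n = 4), at a distance from Plxnd1 (23.6 ± 1.18), Plxna1 (22.0 ± 0.464) and Sema3d (21.6 ± 3.5), whose means lay within the SD of Sema3d. Plxnb1 (16.3 ± 0.386) and Sema5a (16.3 ± 1.52) followed and did not differ beyond their spread. Sema4c, Plxnc1 and Nrp2 had 14.1 ± 0.865, 11.8 ± 2.28 and 11.5 ± 1.14 CPM per kilobase, while Nrp1, at 4.89 ± 0.330, was lower than Nrp2 in every control. At the other end were Sema6b, Sema3g, Sema5b and Plxnb3, all below 1 CPM per kilobase. In mutants, Sema3d ranked second with 32.2 ± 6.35 CPM per kilobase (SD, n = 4). Plxna2 moved from rank 15 to rank 10, Sema7a from 12 to 8 and Plxna4 from 27 to 14, the last with an SD of 6.5 around a mean of 6.97.

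**Figure D3:**
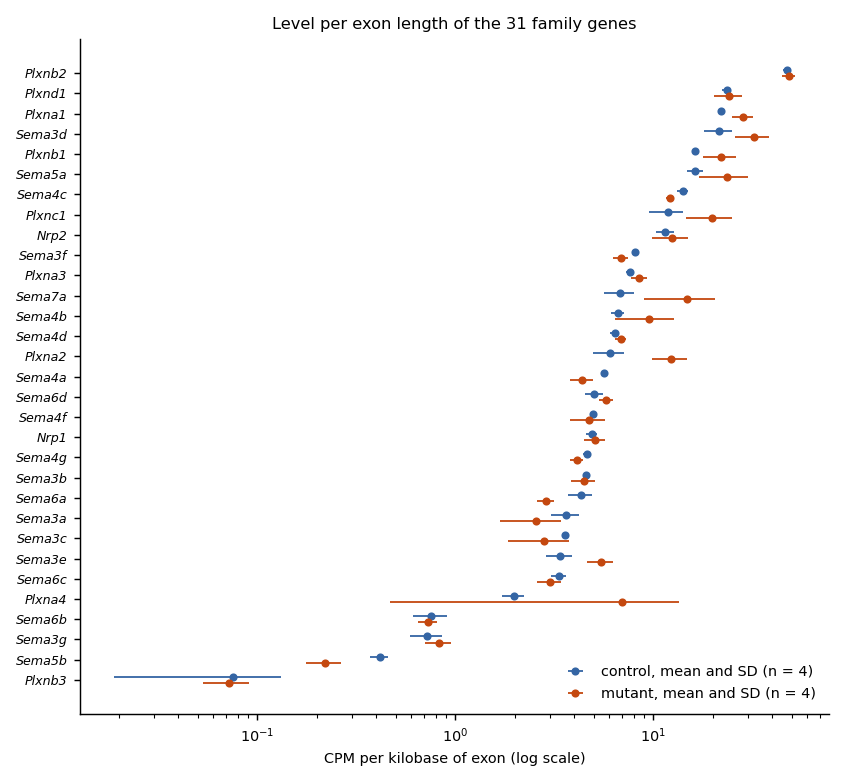
Mean level per exon length (CPM per kilobase, log axis) with SD over 4 embryos for the 31 genes, ordered by the control mean. Plxnb2 leads in both groups, at 47.4 and 48.6 CPM per kilobase, and the wide mutant bar of Plxna4 reflects 4 embryos between 36.5 and 234 CPM.

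Mutant molars differed widely in enamel matrix transcripts, which ameloblasts make as they mature, and several genes of the family followed the same order of embryos. The sum of Amelx, Ambn, Enam, Mmp20 and Klk4 was 557 CPM in J7, 680 in J3, 1902 in J5 and 3252 in J6, and 3500 CPM in K14J28, 9637 in K14J30, 25804 in K14J29 and 114298 in K14J26. In mutants, Plxna2, Plxna4, Plxnd1, Sema3d, Sema3e, Sema4b, Sema5a and Sema7a increased in exactly this order, 8 of the 31 genes (25.8%, against 13.6% of all tested genes). Sema5b decreased along it, alone of the 31 genes, while 12.5% of all tested genes did so. Plxna2, Sema3d and Sema3e kept the order in controls as well (9.68% of the family, against 1.96% of all tested genes). Plxna2, Sema3d and Sema3e thus increased with the enamel sum through all 8 embryos, from J7 to K14J26. The embryos of a group share a genotype and differ in depth and composition. These counts were chosen after the values were seen, and no test was made of them.

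**Figure D4:**
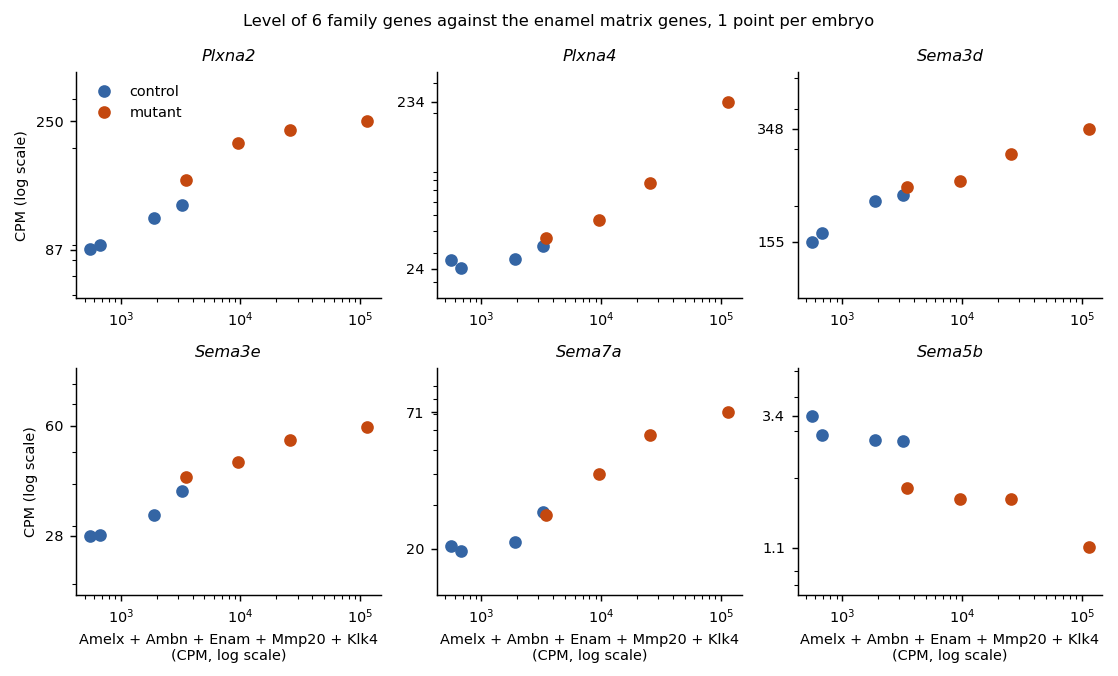
CPM of 6 genes (y axes, log scale) against the summed CPM of 5 enamel matrix genes (x axes, log scale), with 1 point per control or mutant embryo. Plxna2, Sema3d and Sema3e increase through all 8 embryos, and Sema5b decreases from 3.41 CPM in J7 to 1.10 CPM in K14J26.

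The enamel sum separated the groups, with its highest control only just below its lowest mutant, so that genotype and enamel transcripts can be told apart only in part. With the mean log2 level of the 5 enamel genes as a covariate, none of the 31 genes was called by edgeR. At an unadjusted p under 0.05, 2 were higher and 4 lower (6.45% and 12.9%, against 11.6% and 9.45% of all tested genes). The log2 fold changes of the 11 called genes were then -0.175 to 0.568 times those without the covariate (median 0.359). Sema3d was at 0.046, Plxnc1 at 0.070, Plxnb1 and Sema7a at 0.12, Plxna1 at 0.14 and Sema3e at 0.25, and Sema4a, Sema6a and Sema5b were at -0.16, -0.33 and -0.48. The log2 fold change of Plxna2 was 0.48 (edgeR adjusted p = 0.065) and that of Plxna4 was -0.32 (edgeR adjusted p = 0.59). Sums of other marker lists were also compared. Over all tested genes, edgeR called 9.52% higher and 6.61% lower. The 5 epithelial markers named above summed to 4399 to 5112 CPM in controls and 5201 to 7836 CPM in mutants, with 1 called higher. Each mutant sum was above each control sum, and the mutants stood in the order of the enamel sum. The odontoblast and dentin genes Dspp, Dmp1, Phex, Ibsp and Bglap summed to 733 to 2012 CPM in controls and 2646 to 7508 CPM in mutants, with 3 of 5 called higher. The bone cell genes Sp7, Runx2, Spp1, Alpl and Col1a1 summed to 4726 to 7375 and 6475 to 17625 CPM, with 2 of 5 called higher and 1 lower, and the mesenchymal list to 1004 to 1123 and 879 to 1058 CPM, with 3 of 5 called lower. Pericyte markers summed to 306 to 344 and 302 to 352 CPM, with 1 of 5 called higher and 1 lower. The part of these lists in the changes of the family was not tested.

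Around the receptors, 50 genes were examined as co-receptors, other ligands of neuropilins, GTPase partners, kinases and cytoskeletal effectors, and all were tested. Of these, 4 were called higher (8%, against 9.52% of all tested genes) and 6 lower (12%, against 6.61%). Their median log2 fold change was -0.05, and 0.01 over all tested genes. The list shares Kdr with the endothelial markers.

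Of 9 cytoskeletal effectors, 3 were called lower (33.3%, against 6.61% of all tested genes). None was called higher by edgeR, where 2 had a positive fold change with an unadjusted p under 0.05. DESeq2 called 1 higher and 4 lower, against 2244 higher and 1718 lower of the 17129 tested genes. Dpysl4 and Dpysl3, collapsin response mediators that bind tubulin, fell by 1.08 and 0.79 on the log2 scale (standard errors 0.17 and 0.16, edgeR adjusted p = 0.0095 and 0.0167). Dpysl4 had 13.7, 10.5, 11.5 and 14.4 CPM in controls and 4.52, 6.75, 5.40 and 7.02 CPM in mutants, with no overlap. Mical1, an actin-oxidizing enzyme bound by plexins, fell by 0.29 on the log2 scale (standard error 0.07, edgeR adjusted p = 0.0327). Crmp1, Mical2 and Mical3 had positive log2 fold changes of 0.40, 0.21 and 0.38 that did not pass the test (edgeR adjusted p = 0.107, 0.388 and 0.0644). Without K14J26, Mical2 was at 0.0012 and Mical3 at 0.24 (edgeR adjusted p = 0.0465). In the separate list of 10 kinases and adaptors, edgeR called 1 lower (10%, against 6.61% of all tested genes) and 0 higher (against 9.52%). DESeq2 called 2 lower and 0 higher, against 1718 lower and 2244 higher of the 17129 tested genes. The gene called by edgeR was Fyn, a kinase downstream of class A plexins. Fyn had 88.7, 79.4, 83.5 and 96.8 CPM in controls and 60.4, 70.0, 58.8 and 57.2 CPM in mutants. Every mutant was below every control (log2 fold change -0.50, standard error 0.09, edgeR adjusted p = 0.0123), and Fyn and Dpysl4 were called in all 8 fits that left out 1 embryo.

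Among 15 GTPase partners and exchange factors, 3 rose (20%, against 9.52% of all tested genes) and 1 fell (6.67%, against 6.61%). Farp2, a Rac exchange factor that acts with Plxna1, rose by 0.79 on the log2 scale (standard error 0.17, edgeR adjusted p = 0.0188), with 19.6 to 25.8 CPM in controls and 28.5 to 50.5 CPM in mutants. Arhgef11, the RhoA exchange factor bound by class B plexins, had 75.7 to 89.1 and 96.1 to 134 CPM (log2 fold change 0.40, standard error 0.10, edgeR adjusted p = 0.0316). Rnd1, a GTPase that binds the plexin cytoplasmic domain, was called higher on 8 to 47 counts, with overlapping groups (log2 fold change 1.07, standard error 0.31, edgeR adjusted p = 0.0478). Rac1 fell from 356 ± 7.48 to 315 ± 9.0 CPM (SD, n = 4 each; log2 fold change -0.18, standard error 0.05, edgeR adjusted p = 0.0465). Rnd1 and Rac1 were each called in only 1 of the 8 fits that left out 1 embryo.

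Of 16 co-receptors and other ligands, Vegfd fell and Vegfa rose (6.25% in each direction, against 6.61% lower and 9.52% higher over all tested genes). Vegfd, a lymphatic growth factor, had 3.10, 3.34, 1.40 and 4.66 CPM in controls and 0.432, 0.831, 0.208 and 0.814 CPM in mutants, on 6 to 138 counts. The groups were apart (log2 fold change -2.44, standard error 0.46, edgeR adjusted p = 0.0152). Vegfa, which binds Nrp1, had 68.9 to 76.6 CPM in controls and 82.6 to 89.0 CPM in mutants (log2 fold change 0.23, standard error 0.06, edgeR adjusted p = 0.0316).

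**Figure D5:**
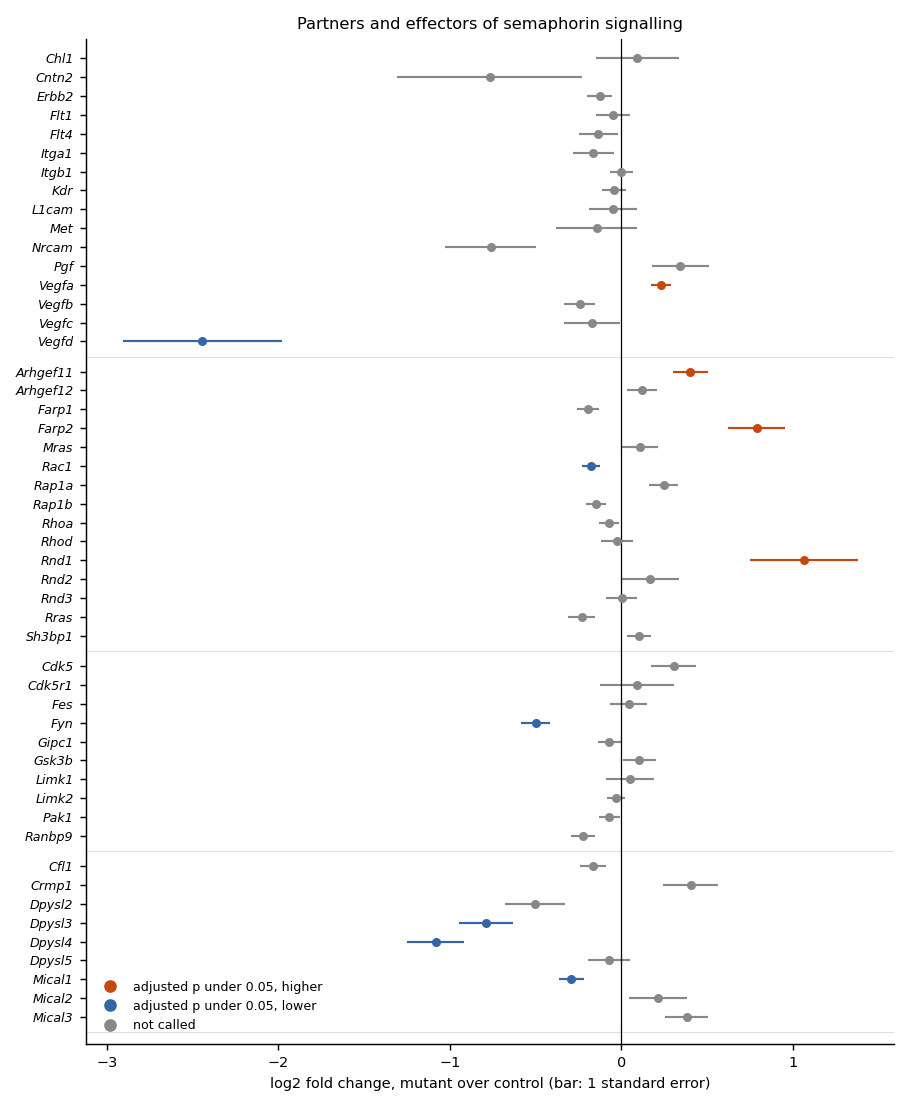
Log2 fold change of mutant over control (x axis) with 1 standard error for 50 genes that act with semaphorin receptors, in blocks for co-receptors and ligands, GTPase partners, kinases and adaptors, and cytoskeletal effectors. Vegfd, Dpysl4 and Dpysl3 lie farthest to the left of the called genes and Rnd1 and Farp2 farthest to the right.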

How the data were processed

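RNA sequencing libraries of pooled left and right lower molars from 4 mutant and 4 control embryos were analysed. Per the methods of the study, the authors prepared poly(A) libraries with a TruSeq kit that does not mark strand, ran Trimmomatic on single-end reads, used STAR for alignment to GRCm38 and GenomicRanges for counting, while the submitters' processing notes list STAR and featureCounts. The deposited values are raw counts per Ensembl gene, 1 table per embryo. The Ensembl release and the treatment of reads with several matches are not given in the sources used here.

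Symbols, types, positions and exon lengths came from GENCODE M21 (GRCm38), in which 42462 of the 43629 IDs were found. A gene was kept if 2 or more embryos of either group had 10 or more counts (17129 genes). Libraries were scaled by TMM and compared with edgeR 4.0.16 (quasi-likelihood test, no covariates, R 4.3.3), with Benjamini-Hochberg adjustment over all genes kept. Standard errors are the absolute log2 fold change over the square root of F. The code of the fit was run on simulated counts with the same dispersion for every gene. That simulation does not represent the differences between these mutants and does not bear on single calls. Alternatives were other scalings, DESeq2 1.42.0, other filters, the criteria of the study, 4 covariates and leaving out each embryo.

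The family, its role groups, the 50 partner genes and the marker lists were chosen with earlier results of these data known. Values per embryo are given for family genes that were called, whose groups do not overlap or that lead their group per exon length. Those of Sema3a and Sema4b were added after they were seen. Of the partner genes, those called were named, up to 5 in each direction per list, and Crmp1, Mical2 and Mical3 were added after their values were seen. 1 marker gene is not reported here, and the epithelial sum was taken without it.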

Additional observations from a re-analysis of the deposited data

Results flagged for a closer look

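In mutant K14J28, Sema6a had 28.9 CPM, while the other 3 mutants had 23.7 to 24.1 CPM. The gap to the nearest of them was 0.914 of the range of the group. This was the only such value in the 62 groups of 4 embryos that were looked at (31 genes in 2 genotypes), and chance marks about 1 group in 20. All controls were above K14J28, at 32.8 CPM or more.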

How the results depend on the processing

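With 4 embryos per group, the calls depended on which embryos entered the fit more than on scaling or filter. Of 31 family genes, 8 were called higher, and leaving out 1 embryo gave 1 to 10; 3 were called lower, and leaving out 1 embryo gave 0 to 6. Of the 50 partner genes, 4 higher became 0 to 6 and 6 lower became 2 to 9. With the enamel covariate, the family counts were 0 and 0 and the partner counts 1 and 0, against 186 and 112 over all genes, and the fold changes of the 11 called family genes were -0.175 to 0.568 times the main ones on the log2 scale. With the skeletal muscle covariate all 4 counts were 0, against 72 and 61 over all genes, and the fold changes of the 11 called genes were 0.869 to 1.06 times the main ones on the log2 scale. Without both controls J6 and J7, a choice made after the data were seen, all 4 counts were 0 as well (3 higher and 4 lower genes over the whole table). The 11 fold changes were 0.925 to 1.11 times the main ones, 10 and 4 family genes had an unadjusted p under 0.05 (32.3% and 12.9%, against 12% and 8.74% of all genes), and Jag1 was at -1.17 (edgeR adjusted p = 0.115). The lower family genes were 5 with upper quartile scaling, with at least 10 counts in all 8 embryos and in DESeq2, and 1 with the endothelial covariate (1448, 1216, 1718 and 790 lower genes over the whole table, against 1133), where Sema5b and Sema6a (edgeR adjusted p = 0.0552 and 0.0683) lost the call. With the Xist covariate Plxnc1 and Sema4a lost it (edgeR adjusted p = 0.0539 and 0.0968). The higher partner genes were 2 with upper quartile scaling, with library size only, with no count filter and by the criteria of the study. Over the whole table these settings gave 1363, 864, 1470 and 1426 higher genes, against 1631 in the main fit. The lower partner genes were 10 in DESeq2, which called 1718 genes lower over the whole table, against 1133. Scaling by library size moved the median log2 fold change of all genes to -0.09. The cause of these shifts was not tested.

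Signs turned for genes near 0 or, with the enamel covariate, for Plxna4 (-0.32), Plxnd1 (-0.28), Sema4b (-0.20), Sema5a (-0.074), Nrp1 (-0.050), Sema3a (0.15), Sema3b (0.11), Sema3c (0.26), Sema4f (0.11) and Plxnb3 (0.59). Plxnb3 was also at 0.51 with the muscle and 0.33 with the endothelial covariate, 0.66 without both controls, and -0.36 to 0.56 leaving out 1 embryo. With library size only, Nrp1 was at -0.050, Nrp2 at -0.0031, Plxnb2 at -0.058, Plxnd1 at -0.079 and Sema4d at -0.0060. Upper quartile scaling gave Plxnb2 -0.0042 and Plxnd1 -0.010, the endothelial covariate gave Plxnb2 -0.032, and the Xist covariate gave Sema3g -0.026 and Sema4f 0.0079. Leaving out 1 embryo gave ranges of -0.0087 to 0.075 for Plxnb2, -0.078 to 0.094 for Plxnd1, -0.10 to 0.056 for Sema3b, -0.20 to 0.024 for Sema4f and -0.17 to 0.053 for Sema6b. No paired analysis was made, because the litter of each embryo is not among the labels used here and the groups share no replicate numbers. Plxnb3, with 3 to 30 counts, is too shallow for a direction.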
